A study of Mus musculus with 8 samples.

Results

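Transcripts of 35 genes of cholesterol synthesis, uptake, storage and export were examined in naive mouse T cells with and without a T cell deletion of Trappc1. The genes were taken by name, as the enzymes from mevalonate to cholesterol, the sterol sensors and their proteases, the acetyl-CoA thiolases and the proteins that move, esterify or export sterols. All 35 have a row in each of the 8 tables, among 23337 gene symbols, and all 35 averaged at least 1 TPM, the minimum for testing, which 11786 symbols reached. The protein made from Trappc1 belongs to the core of TRAPP, a set of tethering complexes for vesicles of the secretory pathway. There were 2 libraries in each of 4 groups: naive CD4 T cells of Trappc1 conditional knockout mice with CD4-cre (CD4 KO), naive CD4 T cells of wild-type mice (CD4 WT), naive CD8 T cells of the same kind of knockout (CD8 KO) and naive CD8 T cells of wild-type mice (CD8 WT). All mice were 4 weeks old, and the cells were sorted as CD62L-positive and CD44-low from spleens and from the lymph nodes that the labels call mLNs. CD4-cre is switched on in developing thymocytes that pass through a stage with both co-receptors, so it acts in both lineages. The labels do not say which bases of Trappc1 are removed, whether WT mice carried the Cre or floxed alleles, or whether the libraries of a group came from separate mice, so each p-value measures the spread between libraries, which may be technical.

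Cells make cholesterol from acetyl-CoA by way of mevalonate, isoprenoids, squalene and lanosterol. The transcription factor SREBP2, encoded by Srebf2, drives most genes of this route. When membrane sterol is low, SCAP carries SREBP2 from the endoplasmic reticulum to the Golgi, where the site-1 and site-2 proteases release its active part, and the INSIG proteins hold SCAP back when sterol is plentiful. Liver X receptors respond to oxysterols and raise sterol export through ABC transporters. T cells raise sterol synthesis when they are activated, while naive cells are quiescent.

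The values are TPM, the share of transcripts after correction for length, scaled by the authors to the same total in every library. Aligned sequence ranged from 3.03 to 4.01 gigabases a library. The summed level of 9 T cell markers lay between 8162 and 9847 TPM in 7 libraries and was 5035 TPM in the second CD8 WT library. The CD4 lineage genes (Cd4 and Zbtb7b) summed to between 546 and 790 TPM in CD4 libraries and between 2.9 and 15.5 TPM in CD8 libraries, and 3 CD8 lineage genes (Cd8a, Cd8b1 and Runx3) to between 47.0 and 86.7 TPM in CD4 libraries and between 872 and 2830 TPM in CD8 libraries. The second CD8 WT library stood apart, with 93199 TPM over 10 erythroid markers and 30976 TPM over 20 myeloid markers. It also had 26202 TPM over 14 B cell markers, against 2065 TPM in the first CD8 WT library and 2111 and 2743 TPM in CD8 KO. Among the other 7 libraries the erythroid sum was 2253 TPM in the first CD8 WT library and at most 384 TPM in the rest. The myeloid sum reached at most 2603 TPM, in the second CD4 KO library. The lists of other cell types also differed between CD4 KO and CD4 WT. The 10 erythroid markers summed to 384 and 213 TPM in CD4 KO, against 16.2 and 108 TPM in CD4 WT. Of them 9 were higher in CD4 KO, and 0 passed the test (limma). The 20 myeloid markers summed to 1703 and 2603 TPM in CD4 KO, against 682 and 454 TPM in CD4 WT, and 18 of them were higher in CD4 KO, although 0 passed the test (limma, with 7 under 0.05 before adjustment). The 14 B cell markers summed to 7370 and 6807 TPM in CD4 KO, against 15909 and 11965 TPM in CD4 WT. Of them 13 were lower in CD4 KO, and no marker of these lists was at 0 in all libraries. Of the 6 markers of natural killer cells, Nkg7, which CD8 T cells also express, had 396 and 357 TPM in CD8 KO, against 169 and 107 TPM in CD8 WT. The other 5 together had 7.29 and 9.34 TPM in CD4 KO, against 0.835 and 1.6 TPM in CD4 WT, and 8.62 and 9.94 TPM in CD8 KO, against 1.33 and 30.8 TPM in CD8 WT. The part of these other cells in the results below was not tested, and in bulk libraries fewer cells of a type and less RNA per cell cannot be told apart.

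Trappc1 itself had 30.5 and 32.8 TPM in CD4 KO, against 78.7 and 55.0 TPM in CD4 WT. The Trappc1 difference of -1.03 ± 0.40 on the log2(TPM + 1) scale (SE, n = 2 each) did not pass (limma, adjusted p = 0.235), although the libraries did not overlap. In CD8 cells the 2 genotypes overlapped, with 56.9 and 45.6 TPM in CD8 KO and 81.2 and 40.3 TPM in CD8 WT. The label of the CD8 KO libraries is therefore not checked by this gene.

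The 35 genes spanned a wide range of levels. Npc2, a lysosomal cholesterol-binding protein, was the most abundant at a mean of 820 TPM over the 8 libraries. Nr1h2, the liver X receptor beta, averaged 461 TPM, and Lbr, a sterol reductase that also anchors the nuclear lamina, 331 TPM. Acat2, the cytosolic thiolase that starts the route, averaged 213 TPM and Sc5d, a late desaturase, 163 TPM. At the low end were Hsd17b7 (4.09 TPM), Mvk (4.95 TPM) and Nsdhl (5.93 TPM), enzymes of sterol or mevalonate synthesis. The 35 genes together made up 3073 and 3318 TPM in CD4 KO, against 3399 and 3365 TPM in CD4 WT. They made up 3533 and 3315 TPM in CD8 KO, against 3383 and 2164 TPM in CD8 WT, where the low value is that of the second library.

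**Figure D1:**
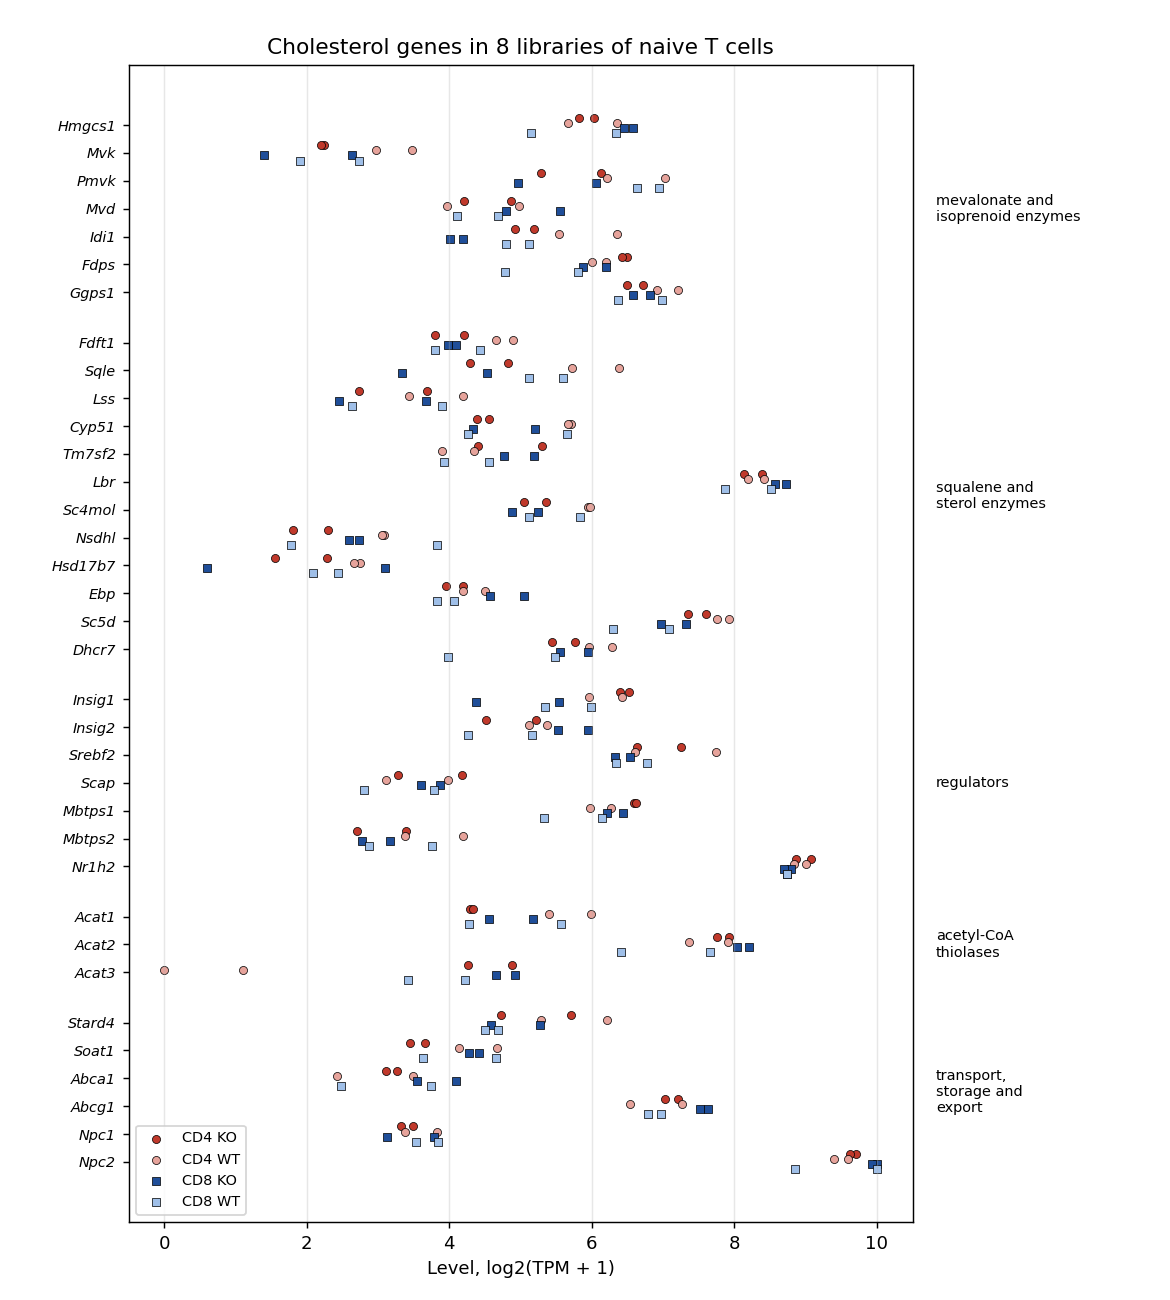
Level of each of the 35 cholesterol genes in every library, on the log2(TPM + 1) scale, by role, with the 4 groups in different colours and symbols. Npc2 and Nr1h2 lie furthest right, Hsd17b7 and Mvk have the lowest means, and the 2 CD4 WT points of Acat3 lie at 0 and near 1, left of its other 6 points.

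In CD4 cells, 1 of the 35 genes passed the test between KO and WT at an adjusted p of 0.05 over all genes. It was Acat3, an acetyl-CoA thiolase, higher in CD4 KO, where 0.713% of all genes tested were called. At an unadjusted p under 0.05 there were 5 (Acat1, Acat3, Cyp51, Idi1 and Sqle), beside 16.7% of all genes. Across the set 23 of 35 genes had a difference below 0, beside 58% of all genes, and the median difference was -0.36 beside -0.16 over all genes. In 14 genes both CD4 KO libraries lay below both CD4 WT libraries (36.5% of all genes did so), and in 5 they lay above (21.7% of all genes). With median-of-ratios scaling, which moves the median of all genes to 0.03, these counts were 10 lower and 9 higher (27.8% and 29.8% of all genes), and the median of the set was -0.14.

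In CD8 cells, 0 of the 35 genes passed (limma), where 0.297% of all genes were called. Unadjusted p-values under 0.05 were found for 4 (Acat2, Insig2, Pmvk and Sqle), beside 15.1% of all genes. Here 15 of 35 genes had a difference below 0, beside 47.3% of all genes, and the median was 0.20, beside 0.05 over all genes. Both CD8 KO libraries lay above both CD8 WT libraries in 12 genes (23% of all genes) and below them in 3 (19.1% of all genes). The second CD8 WT library was below the first for 29 of 35 genes (63.3% of all genes tested) and the lowest of the 8 libraries for 17 (29.5%). Set against the first CD8 WT library alone, both CD8 KO libraries were higher for 13 genes (32.4% of all genes) and lower for 13 (41%), and the median of the set was 0.01. Without the second CD8 WT library the count that passed was also 0.

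**Figure D2:**
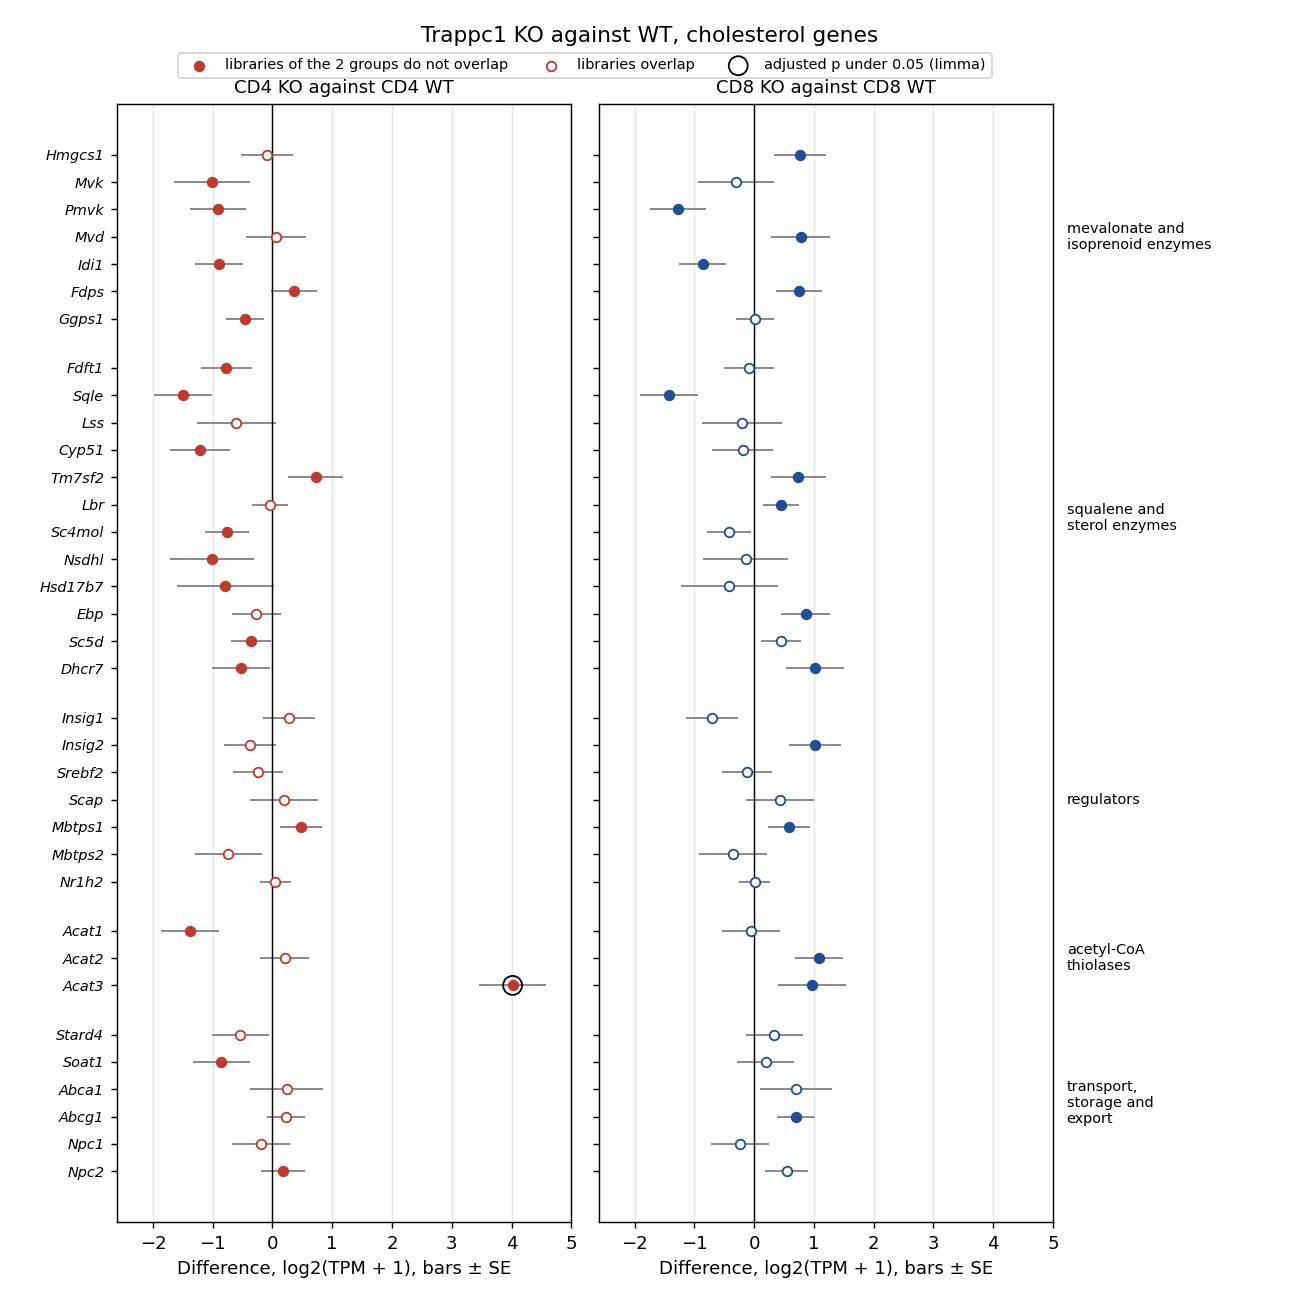
Difference between KO and WT of each cholesterol gene on the log2(TPM + 1) scale, with its SE, in CD4 cells (left) and CD8 cells (right). Filled points mark genes whose 2 KO libraries both lie on the same side of both WT libraries, and the ring marks Acat3 in CD4 cells, the gene called by limma. Sqle, Pmvk and Idi1 are left of 0 with filled points in both panels.

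The mevalonate and isoprenoid enzymes are 7 genes, of which 0 passed in either lineage. In CD4 cells 5 of the 7 had a difference below 0 and 2 above it, with a median of -0.45. In CD8 cells 3 were below 0 and 4 above, with a median of 0.02. When the second CD8 WT library was left out, 4 were below 0 (Mvk, Pmvk, Idi1 and Ggps1) and 3 above (Hmgcs1, Mvd and Fdps), with a median of -0.28. All 7 were then without overlap against the first CD8 WT library, beside 41% of all genes lower and 32.4% higher. Pmvk (chromosome 3, 89459118 to 89469009, plus strand, mm10), the second kinase of the route, had 38.2 and 68.8 TPM in CD4 KO, against 129 and 72.9 TPM in CD4 WT. It had 66.0 and 30.4 TPM in CD8 KO, against 122 and 98.5 TPM in CD8 WT. All 4 KO libraries were thus below all 4 WT libraries in TPM, though not under median-of-ratios scaling. The CD8 difference of Pmvk was -1.27 ± 0.47 (limma, adjusted p = 0.257). Idi1 (chromosome 13, 8885606 to 8892396, plus strand), which interconverts the 2 isoprenoid building blocks, had 29.5 and 35.4 TPM in CD4 KO, against 81.1 and 45.6 TPM in CD4 WT. It had 15.05 and 17.2 TPM in CD8 KO, against 33.7 and 26.8 TPM in CD8 WT. Idi1 was lower without overlap in each lineage, by -0.89 ± 0.40 in CD4 cells (limma, adjusted p = 0.297). Fdps, the farnesyl diphosphate synthase, lay the other way, with 89.1 and 84.8 TPM in CD4 KO, against 63.4 and 72.7 TPM in CD4 WT. It had 72.6 and 57.8 TPM in CD8 KO, against 55.0 and 26.5 TPM in CD8 WT. The lower CD8 KO library is close to the first CD8 WT library. The Fdps exons share 26.7% of their bases with Gm43738, a protein-coding gene on the same strand, so reads there cannot be assigned by position alone. Of the 35 genes, 13 share exon bases with another gene, and 7 of these share at least 10%. Some genes lower without overlap in CD4 KO share bases with a gene on the opposite strand. These are Fdft1 (18.3%, Ctsb), Idi1 (9.2%, Gm48574), Ggps1 (5.4%, Arid4b) and Cyp51 (3.8%, Akap9). Arid4b and Akap9 were themselves lower without overlap in CD4 KO, while Ctsb overlapped. The part of shared reads in these differences was not tested. Hmgcs1, which makes HMG-CoA, overlapped in CD4 cells (55.3 and 64.4 TPM in CD4 KO, against 50.05 and 80.8 TPM in CD4 WT). It had 86.3 and 94.2 TPM in CD8 KO, against 79.8 and 34.3 TPM in CD8 WT, where the gap to the first WT library is small. Mvk and Ggps1 were lower without overlap in CD4 cells and overlapped in CD8 cells, and Mvd, which overlapped in CD4 cells, was higher without overlap in CD8 cells.

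The enzymes from squalene to cholesterol are 12 genes, of which 0 passed in either lineage taken alone. In CD4 cells 11 of the 12 had a difference below 0, with a median of -0.68, and 8 were lower without overlap (Fdft1, Sqle, Cyp51, Sc4mol, Nsdhl, Hsd17b7, Sc5d and Dhcr7), beside 58% and 36.5% of all genes. Under median-of-ratios scaling 10 were below 0 and 6 were lower without overlap, beside 48.5% and 27.8% of all genes. In CD8 cells 7 of the 12 were below 0, with a median of -0.11. Sqle was lower without overlap and 4 were higher (Tm7sf2, Lbr, Ebp and Dhcr7), beside 19.1% and 23% of all genes. Without the second CD8 WT library the median was -0.32 and 6 of the 12 were lower without overlap (Fdft1, Sqle, Lss, Cyp51, Sc4mol and Nsdhl), beside 41% of all genes. The same 4 were higher without overlap, beside 32.4% of all genes. Sqle (chromosome 15, 59315092 to 59331193, plus strand), the squalene epoxidase that takes the first oxygen-dependent step, had 27.2 and 18.5 TPM in CD4 KO, against 82.3 and 51.7 TPM in CD4 WT. It had 22.2 and 9.1 TPM in CD8 KO, against 47.6 and 33.7 TPM in CD8 WT. No KO library reached the lowest WT library. The differences were -1.50 ± 0.49 in CD4 cells (limma, adjusted p = 0.171) and -1.42 ± 0.49 in CD8 cells (limma, adjusted p = 0.239).

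Cyp51 (chromosome 5, 4080674 to 4104697, minus strand), the lanosterol 14-alpha-demethylase, had 22.4 and 20 TPM in CD4 KO, against 51.5 and 49.8 TPM in CD4 WT. The difference was -1.22 ± 0.50 (limma, adjusted p = 0.263). In CD8 cells it overlapped, at 35.9 and 19.2 TPM in CD8 KO and 49.4 and 18.3 TPM in CD8 WT. Sc4mol, the older name of Msmo1, which removes methyl groups at carbon 4, had 32.2 and 39.9 TPM in CD4 KO, against 60.6 and 61.8 TPM in CD4 WT. The WT libraries lie close together here and well above both KO libraries. In CD8 cells Sc4mol had 28.3 and 36.9 TPM in CD8 KO, against 56.2 and 33.7 TPM in CD8 WT, and the groups overlapped. Dhcr7 (chromosome 7, 143823167 to 143848410, plus strand), which makes cholesterol from its last precursor, was the single gene of the 35 that was lower without overlap in CD4 cells and higher without overlap in CD8 cells (3.84% of all genes). It had 53.5 and 42.4 TPM in CD4 KO, against 61.4 and 77.3 TPM in CD4 WT, and 60.7 and 46.1 TPM in CD8 KO, against 43.8 and 14.8 TPM in CD8 WT. The CD8 direction rests largely on the second WT library, since the first is close to the lower KO library. Tm7sf2, a sterol reductase that acts beside Lbr, was higher without overlap in both lineages, with 20.1 and 38.6 TPM in CD4 KO, against 13.9 and 19.4 TPM in CD4 WT, and 35.5 and 26.3 TPM in CD8 KO, against 22.5 and 14.2 TPM in CD8 WT. Its exons share 12.1% of their bases with Vps51, a protein-coding gene on the same strand, so reads there cannot be assigned by position alone. Lbr and Ebp overlapped in CD4 cells and were higher without overlap in CD8 cells, and Lss, the lanosterol synthase, overlapped in both.

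**Figure D3:**
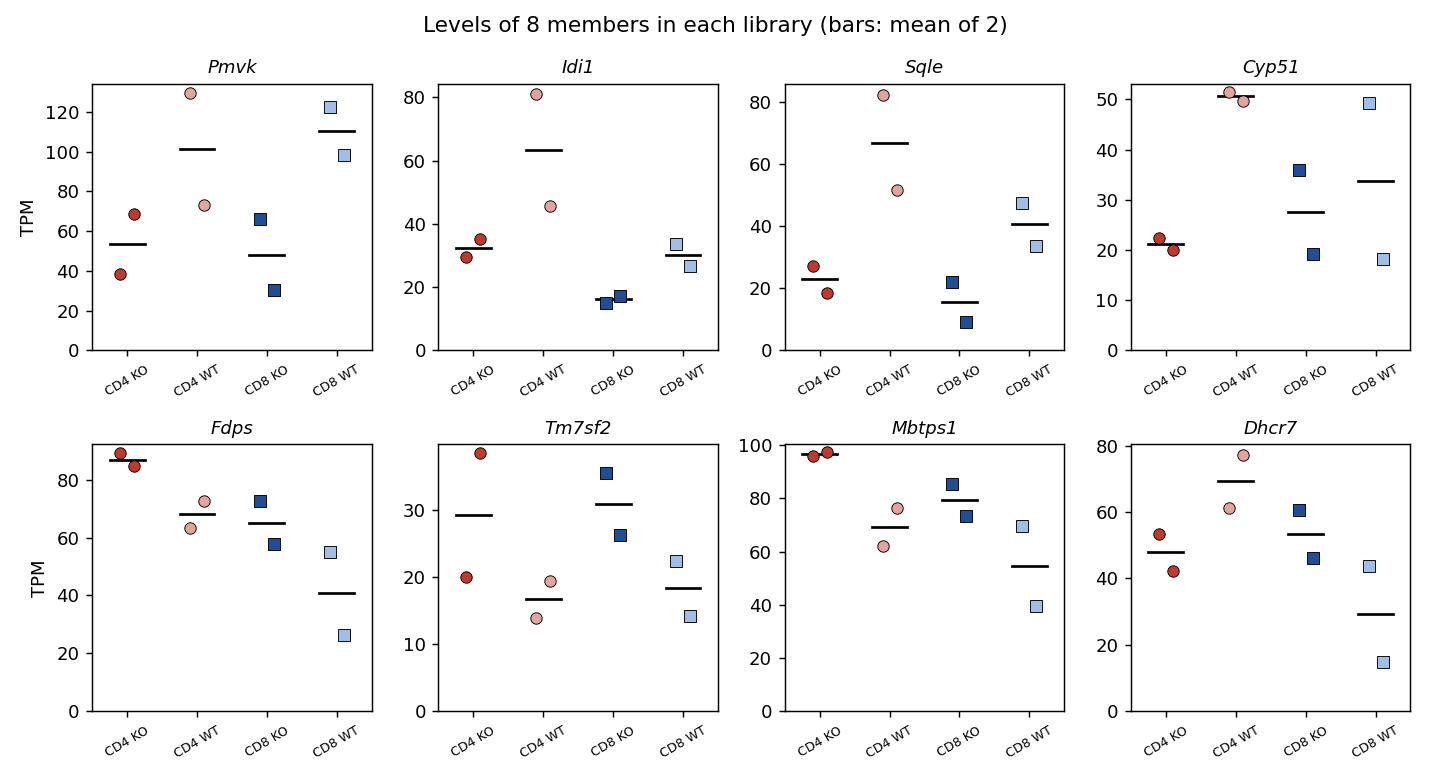
TPM of 8 cholesterol genes in each library, with points for the 2 libraries of a group and a line at their mean. Pmvk, Idi1 and Sqle are lower in KO in both lineages, Cyp51 in CD4 cells, and Fdps, Tm7sf2 and Mbtps1 are higher in KO in both, while Dhcr7 lies below CD4 WT in CD4 KO and above CD8 WT in CD8 KO.

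The promoters of these enzymes are known to hold sterol regulatory elements, where SREBP2 binds, and inverted CCAAT boxes, where NF-Y binds beside it. RefSeq promoter windows of GRCm38.p6, from 250 bases before to 50 after the gene start, were found for 27 of the 35 genes. On either strand, TCACNCCAC was in 1 of the 27 (3.7%), beside 1.44% of 27025 genes, and ATTGG was in 21 of the 27 (77.78%), beside 41.06% of genes. These are matches of letters and not measured binding. Hmgcs1 is shown as the holder of the longer motif, 137 bases before the start, and Idi1 and Cyp51 as genes lower without overlap in CD4 KO. Each runs 5′ to 3′ on the gene's strand, with motif matches in capitals (TCACCCCAC, ATTGG or its complement CCAAT), from chr13:119690101-119690400 (plus) for Hmgcs1, chr13:8885356-8885655 (plus) for Idi1 and chr5:4104648-4104947 (minus) for Cyp51.
Hmgcs1: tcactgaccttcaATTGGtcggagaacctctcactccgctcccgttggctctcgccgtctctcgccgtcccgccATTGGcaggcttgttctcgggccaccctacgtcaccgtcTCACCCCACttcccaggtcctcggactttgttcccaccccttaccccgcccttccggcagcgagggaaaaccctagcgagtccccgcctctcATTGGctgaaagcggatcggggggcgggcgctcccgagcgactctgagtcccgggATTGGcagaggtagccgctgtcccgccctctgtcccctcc
Idi1: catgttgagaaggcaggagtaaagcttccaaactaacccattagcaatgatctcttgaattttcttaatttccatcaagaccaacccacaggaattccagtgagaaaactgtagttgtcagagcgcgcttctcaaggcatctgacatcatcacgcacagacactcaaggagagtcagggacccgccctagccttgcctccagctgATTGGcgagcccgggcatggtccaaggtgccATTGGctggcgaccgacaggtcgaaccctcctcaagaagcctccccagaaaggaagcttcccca
Cyp51: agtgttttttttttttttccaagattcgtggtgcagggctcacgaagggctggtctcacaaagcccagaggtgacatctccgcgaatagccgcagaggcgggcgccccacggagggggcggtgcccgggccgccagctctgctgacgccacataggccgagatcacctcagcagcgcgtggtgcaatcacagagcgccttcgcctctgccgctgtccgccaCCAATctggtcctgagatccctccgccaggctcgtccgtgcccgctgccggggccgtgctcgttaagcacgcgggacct
Hmgcs1 holds 4 matches to ATTGG, Idi1 2 and Cyp51 1, and in CD8 cells Hmgcs1 was higher and Idi1 lower in KO without overlap while Cyp51 overlapped.

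The acetyl-CoA thiolases join acetyl-CoA units into acetoacetyl-CoA, in mitochondria for Acat1 and in the cytosol for Acat2. Acat3 (chromosome 17, 12923959 to 12940396, minus strand, mm10) is a close copy of Acat2 that lies 2645 bases from it on the same strand. Acat3 had 28.5 and 18.1 TPM in CD4 KO, against 0 and 1.15 TPM in CD4 WT. It had 24.3 and 29.4 TPM in CD8 KO, against 17.7 and 9.68 TPM in CD8 WT. The CD4 WT libraries are thus the low ones, and the other 6 libraries all exceed them. The CD4 difference was 4.02 ± 0.57 (limma, adjusted p = 0.0301, n = 2 each), higher in 2 of 2 KO libraries. It passed in 10 of 17 alternatives, with adjusted p from 0.00156 to 0.375, and it did not pass when any CD4 or CD8 KO library or either CD4 WT library was left out. The zero is listed as such in a table without read counts, so it may be a missed estimate. The size of the difference depends on the setting, from 3.11 with FPKM to 6.01 with a pseudocount of 0.1. It is therefore not read as a fold.

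The coding sequences of Acat2 and Acat3 are 1191 bases each and identical at 1164 of them (97.73%), with a longest identical run of 357 bases. Of all 100-base windows of the Acat3 coding sequence, 57.6% occur letter for letter in Acat2, so many reads cannot be assigned to either by sequence alone. The first 90 coding bases, which hold 11 of the differences, the most of any such window, are shown with differing bases in capitals (GENCODE M21 transcripts, chromosome 17).
Acat2: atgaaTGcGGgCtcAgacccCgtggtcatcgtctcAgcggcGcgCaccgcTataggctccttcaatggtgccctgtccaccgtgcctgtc
Acat3: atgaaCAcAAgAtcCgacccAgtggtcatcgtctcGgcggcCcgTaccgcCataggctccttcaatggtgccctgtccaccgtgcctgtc
Acat3 was 10.55% and 7.76% of the summed TPM of Acat2 and Acat3 in CD4 KO, against 0% and 0.7% in CD4 WT. It was 8.46% and 9.08% in CD8 KO, against 8.04% and 10.35% in CD8 WT, where the genotypes overlapped. Acat2 had 242 and 215 TPM in CD4 KO, against 240 and 163 TPM in CD4 WT. The Acat3 exons also share 571 bases, 23.5% of their length, with Tcp1, a chaperonin subunit on the opposite strand. Tcp1 had 222 and 212 TPM in CD4 KO, against 185 and 204 TPM in CD4 WT. Tcp1 was thus also lower in CD4 WT than in CD4 KO without overlap. The part of Tcp1 reads in the Acat3 values was not tested. The Acat3 values are therefore uncertain, since the way the authors' counting divided shared reads is not stated.

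Acat2 in CD8 cells had 263 and 294 TPM in CD8 KO, against 202 and 83.8 TPM in CD8 WT. The difference was 1.09 ± 0.41 (limma, adjusted p = 0.265), and 0.46 without the second WT library. Acat1 had 18.5 and 19.1 TPM in CD4 KO, against 62.6 and 41.0 TPM in CD4 WT, a difference of -1.38 ± 0.49 (limma, adjusted p = 0.200). In CD8 cells Acat1 overlapped, with 35.1 and 22.6 TPM in CD8 KO and 46.5 and 18.3 TPM in CD8 WT. In CD4 cells Acat1 was thus lower without overlap while Acat2 overlapped, and neither passed.

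**Figure D4:**
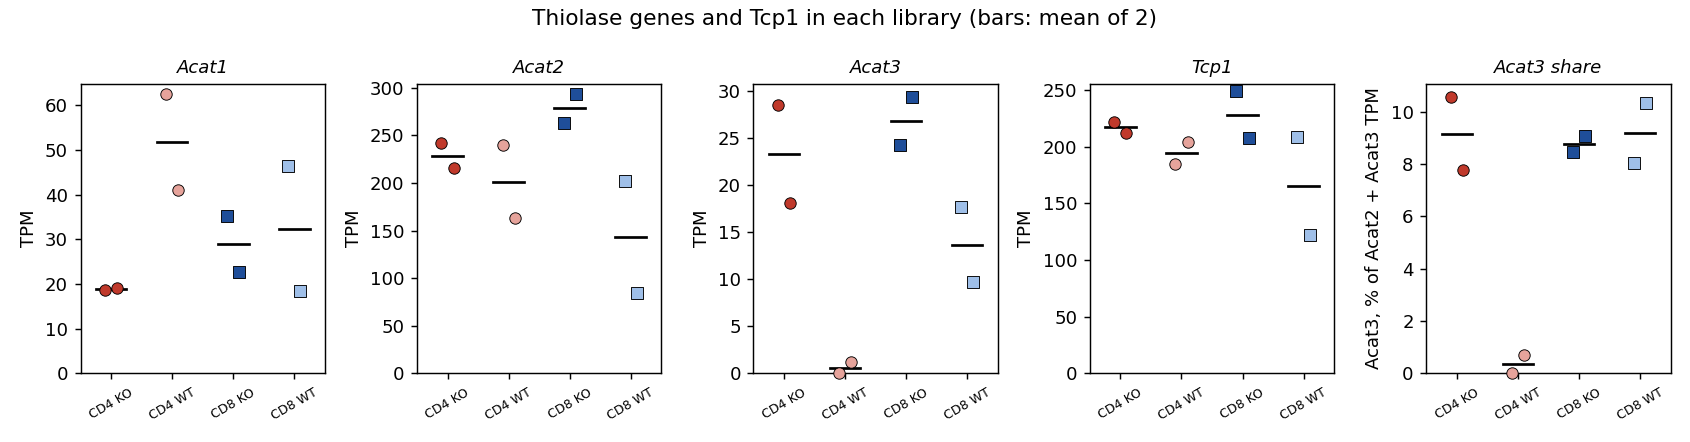
TPM of Acat1, Acat2, Acat3 and the neighbouring Tcp1 in each library, and Acat3 as a percentage of the summed TPM of Acat2 and Acat3. Acat3 is at 0 and 1.15 TPM in CD4 WT and at 9.68 TPM or more in the other 6 libraries. In CD4 WT Acat2 is at 240 and 163 TPM and Tcp1 at 185 and 204 TPM.

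The regulators are 7 genes, of which 0 passed in either lineage. In CD4 cells 4 had a difference above 0 and 3 below, with a median of 0.05, and in CD8 cells also 4 and 3, with a median of 0.01. Srebf2 had 98.1 and 151 TPM in CD4 KO, against 96.0 and 214 TPM in CD4 WT, and 79.2 and 91.8 TPM in CD8 KO, against 79.7 and 109 TPM in CD8 WT. The genotypes overlapped in each lineage, as they did for Scap and Insig1. Scap had 8.75 and 17.1 TPM in CD4 KO, against 7.64 and 14.8 TPM in CD4 WT, and 13.6 and 11.2 TPM in CD8 KO, against 12.8 and 5.97 TPM in CD8 WT. Insig1 had 83.6 and 91.0 TPM in CD4 KO, against 61.3 and 84.6 TPM in CD4 WT, and 45.4 and 19.8 TPM in CD8 KO, against 39.4 and 62.8 TPM in CD8 WT. The sensor and the processing genes thus showed no separation by genotype in TPM apart from Insig2 in CD8 cells and Mbtps1. Under median-of-ratios scaling Insig1, Mbtps1 and Nr1h2 were higher without overlap in CD4 cells, beside 29.8% of all genes. With the trend on genomic span removed, Insig2, Scap and Mbtps1 were higher in CD8 cells and Nr1h2 lower, all without overlap. The shares over all genes were 21.3% and 19.5%. Insig2, which retains SCAP in the endoplasmic reticulum, had 44.95 and 60.4 TPM in CD8 KO, against 34.9 and 18.2 TPM in CD8 WT, a difference of 1.02 ± 0.43 (limma, adjusted p = 0.313), and 0.57 without the second WT library. In CD4 cells it overlapped, at 36.2 and 21.9 TPM in CD4 KO and 40.4 and 33.6 TPM in CD4 WT. Mbtps1, the site-1 protease, was higher without overlap in both lineages, with 95.7 and 97.4 TPM in CD4 KO, against 61.9 and 76.4 TPM in CD4 WT, and 85.4 and 73.5 TPM in CD8 KO, against 69.5 and 39.4 TPM in CD8 WT. Its partner Mbtps2, the site-2 protease, overlapped in each. Nr1h2 lay between 416 and 538 TPM in all 8 libraries.

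The genes of transport, storage and export are 6, of which 0 passed in either lineage. Their median difference was -0.01 in CD4 cells and 0.44 in CD8 cells, where 5 were above 0 and 1 below. The CD8 median was 0.11 without the second CD8 WT library, with 3 above 0 and 3 below. Soat1, which esterifies cholesterol for storage, had 11.6 and 9.88 TPM in CD4 KO, against 16.5 and 24.5 TPM in CD4 WT, and was lower without overlap. In CD8 cells it overlapped, at 18.4 and 20.3 TPM in CD8 KO and 24.3 and 11.4 TPM in CD8 WT. Abcg1, an exporter of sterol to lipoproteins, had 198 and 183 TPM in CD8 KO, against 124 and 110 TPM in CD8 WT, and was higher without overlap. In CD4 cells it had 130 and 148 TPM in CD4 KO, against 153 and 91.8 TPM in CD4 WT. Abca1, the exporter to lipid-poor apolipoprotein, was low, between 4.36 and 16.1 TPM, and overlapped in both lineages. Npc1 and Npc2, which hand cholesterol out of lysosomes, lay between 7.69 and 13.4 TPM and between 460 and 1026 TPM over the 8 libraries. Npc2 was higher without overlap in CD4 KO, at 839 and 792 TPM, against 772 and 674 TPM in CD4 WT. Stard4, a carrier of sterol in the cytosol, overlapped in both lineages.

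With the CD4 and CD8 differences averaged in a single contrast, 2 of 35 genes passed, where 4.12% of all genes were called. Sqle fell by 1.46 ± 0.34 on the log2 scale (limma, adjusted p = 0.0478), and was lower in 4 of 4 KO libraries. This call held in 5 of 16 alternatives, with adjusted p from 0.0303 to 0.208, and was lost when any CD4 library, either CD8 KO library or the first CD8 WT library was left out. Without the second CD8 WT library both calls held. Acat3 was higher by 2.50 ± 0.40 (limma, adjusted p = 0.0153), under the same doubt about its reads, and was called in 9 of 16 alternatives. It too was lost when any CD4 library or either CD8 KO library was left out. The next were Pmvk at -1.09 ± 0.33 (limma, adjusted p = 0.0940) and Idi1 at -0.88 ± 0.28 (limma, adjusted p = 0.107), which did not pass. In Pmvk, Sqle and Acat3 all 4 KO libraries lay on the same side of all 4 WT libraries in TPM (13.3% of all genes did so in either direction). For Acat3 the gap is small, at 18.1 TPM in the lowest KO library and 17.7 TPM in the highest WT library. Under median-of-ratios scaling Pmvk lost this, and Sc4mol, Tm7sf2, Mbtps1 and Abcg1 gained it (8.32% of all genes lower, 7.92% higher). With the span trend removed Acat3 lost it, and Idi1, Ggps1, Sc4mol, Mbtps1, Abca1 and Abcg1 gained it (4.72% lower, 5.86% higher). In TPM the genes lower without overlap in both lineages were Idi1, Pmvk and Sqle (11.1% of all genes). Those higher in both were Acat3, Fdps, Mbtps1 and Tm7sf2 (8.93% of all genes). Under median-of-ratios scaling Pmvk left the first list and Fdft1 and Sc4mol joined it, while Lbr, Abcg1 and Npc2 joined the second. With the span trend removed Fdps and Tm7sf2 left the second list and Abca1 and Abcg1 joined it, while Ggps1 and Sc4mol joined the first. The shares over all genes in these settings were not counted.

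Whether the KO difference itself differed between CD8 and CD4 cells was tested as an interaction, which called 0 of the 35 genes and 0% of all genes (limma). The unadjusted p was under 0.05 for 3, beside 6.95% of all genes. They were Acat3 at -3.04 ± 0.80 (limma, adjusted p = 0.652), Dhcr7 at 1.54 ± 0.68 and Insig2 at 1.39 ± 0.61 (limma, adjusted p = 0.701 for each). Leaving out the second CD8 WT library gave 0.79 for Dhcr7. Each of the 12 squalene and sterol enzymes had a CD8 difference above its CD4 difference, by a median of 0.59, beside 0.24 over all genes, and 61.2% of all genes lay that way. This held for 7 of the 12 without the second CD8 WT library, with a median of 0.25, beside 54.3% and 0.08 over all genes. Under median-of-ratios scaling, and with the span trend removed, it held for 10 of the 12. The median of the 35 genes was 0.46, and 0.15 under median-of-ratios scaling. Leaving out each library in turn gave 0.25 to 0.83, the extremes being without the second and without the first CD8 WT library.

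Between wild-type lineages, 0 of 35 genes passed for CD8 WT against CD4 WT (limma), where 0.195% of all genes were called. For 5 the unadjusted p was under 0.05, beside 8.67% of all genes. Acat3 was at 17.7 and 9.68 TPM in CD8 WT, against 0 and 1.15 TPM in CD4 WT (3.27 ± 0.57, limma, adjusted p = 0.0724). The other 4 lay lower in CD8 WT, namely Sc5d (-1.15 ± 0.33), Dhcr7 (-1.39 ± 0.48), Stard4 (-1.16 ± 0.48) and Idi1 (-0.99 ± 0.40), with adjusted p from 0.377 to 0.559 (limma). Sc5d had 135 and 77.9 TPM in CD8 WT, against 242 and 215 TPM in CD4 WT, and Idi1 had 33.7 and 26.8 TPM in CD8 WT, against 81.1 and 45.6 TPM in CD4 WT. In all, 30 of 35 genes had a difference below 0, beside 67% of all genes. This contrast shares its WT libraries with the KO contrasts and includes the second CD8 WT library, which is low for most of the 35 genes. Without that library 0 of 35 passed, and the differences of Dhcr7 and Sc5d were -0.64 and -0.75.

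Another 51 genes of the pathway, listed by function, were looked up, of which 44 averaged at least 1 TPM. In CD4 cells 15 were higher and 29 lower in KO, and 1 passed, and in CD8 cells 17 were higher and 27 lower, and 0 passed (limma), beside the 0.713% and 0.297% of all genes given above. An unadjusted p under 0.05 was found for 8 of the 44 in each lineage, beside 16.7% of all genes in CD4 cells and 15.1% in CD8 cells. The gene that passed was Pgrmc1, a heme-binding membrane protein that binds sterol-metabolising cytochromes, with 589 and 525 TPM in CD4 KO, against 176 and 186 TPM in CD4 WT (1.62 ± 0.29, limma, adjusted p = 0.0438). It held in 9 of 17 alternatives. In CD8 cells Pgrmc1 had 284 and 342 TPM in CD8 KO, against 187 and 127 TPM in CD8 WT, without overlap. In the averaged contrast 2 of the 44 passed as higher and 1 as lower (limma), beside 1.36% and 2.76% of all genes. Pgrmc1 rose by 1.31 ± 0.21 (limma, adjusted p = 0.0146) and Mylip by 1.12 ± 0.24 (limma, adjusted p = 0.0335). These 2 calls each held in 9 of 16 alternatives. Pdss2 fell by 2.35 ± 0.56 (limma, adjusted p = 0.0486). Mylip, a ubiquitin ligase, had 250 and 251 TPM in CD4 KO, against 140 and 108 TPM in CD4 WT, and 166 and 161 TPM in CD8 KO, against 92.8 and 52.5 TPM in CD8 WT. Each KO library was above each WT library. Pdss2, which makes the isoprenoid tail of ubiquinone, had 5.07 and 6.55 TPM in CD4 KO, against 15.6 and 45.9 TPM in CD4 WT, and 8.68 and 0.80 TPM in CD8 KO, against 29.2 and 21.7 TPM in CD8 WT, and held in 4 of 16 alternatives. With the trend on genomic span removed its averaged difference was -1.11 (limma, adjusted p = 0.312).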

How the data were processed

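Per the labels, a SMARTER mRNA kit made the libraries from RNA of the 8 sorted samples. Reads were aligned with HISAT to mm10, per the submitters' processing notes. Not given in the sources used here are the HISAT version, the program behind the gene tables and the use of strand. The deposited tables hold, per the file headers, TPM, scaled by the authors to the same total in each library, and FPKM, a length-corrected density. The coverage signal per gene, also deposited, was divided by FPKM to estimate depth (3.03 to 4.01 gigabases, with 83.8% to 84.4% of genes with FPKM over 1 within 1% of the same ratio). The tables hold no counts, so no counting interval can be given. Between 136 and 261 symbols a library stood on several rows and were summed. The labels name DESeq2 for the authors' own tests, which were not used.

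Genes averaging at least 1 TPM were taken as log2(TPM + 1), which understates changes of weakly expressed genes, and fitted with limma 3.58.1 (R 4.3.3), with 1 mean per group, an intensity trend, 4 residual and 5.68 prior degrees of freedom, and Benjamini-Hochberg adjustment over 11786 genes at 0.05. The planned count test was replaced by this fit, since the files hold TPM. The steps were tested on simulated data. The 35 genes and all lists were chosen with earlier results of these data known. Named by rule were members with an unadjusted p under 0.05, Srebf2, Scap, Insig1, Insig2, Acat2 and Acat3, and, of the other pathway genes, those called or else the 3 with the lowest p in a KO contrast. The other members shown with values, such as Fdps, Tm7sf2, Mbtps1, Dhcr7 and Sc4mol, were chosen after their values were seen. Some of the other pathway genes are not reported here. Alternatives were another pseudocount (0.1), no filter or a mean of 5 TPM, FPKM, median-of-ratios scaling, removal of a trend with genomic span, library weights, groups fitted alone, a replicate block and leaving out each library. Spans are from the files, exons and coding sequences from GENCODE M21 (GRCm38, the same assembly as mm10). Figures used matplotlib 3.10.9.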

Additional observations from a re-analysis of the deposited data

How the results depend on the processing

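Over 17 settings, including 8 that leave out a library, 533 single-gene differences were recomputed. Of these, 458 kept their direction and side of the threshold, 59 lost the threshold, 16 gained it and 0 changed direction. All were chosen for an unadjusted p under 0.05 in the report (limma) and refitted on shared libraries. A kept direction is therefore no independent check. Most had not passed in the report, and those count as kept when they again did not pass. Only calls can lose the threshold, and how often each call held is given above. In CD4 cells the count of the 35 genes called, 1 in the report, was 0 with no filter and 3 with library weights (Acat1, Acat3 and Sqle). The count over all genes, 84 in the report (22 higher), was 0 with no filter, 141 with median-of-ratios scaling (62 higher), 21 with the span trend removed, 1260 with library weights, 29 with the replicate block and 243 with the groups alone. In CD8 cells, with 35 genes called in the report, it was 0 with no filter, with library weights and with the groups alone. In the averaged contrast the count of the 35, 2 in the report, was 0 with no filter and 1 each with a pseudocount of 0.1, the span trend removed and library weights, and that over all genes, 485 in the report (160 higher), was 26 with no filter, 763 with median-of-ratios scaling (343 higher) and 153 with the span trend removed. For CD8 WT against CD4 WT, 1 of the 35 (Acat3) was called with the span trend removed, and the count over all genes, 23 in the report, was 1 with no filter, 15 with library weights and 0 with the groups alone. The cause of these shifts was not tested.

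Leaving out each library gave 0 to 1 of the 35 genes called in CD4 cells, 0 to 6 in CD8 cells, 0 to 5 averaged, 0 to 2 for the difference between lineages and 0 to 5 between wild types, out of 0 to 768, 0 to 1842, 0 to 1798, 0 to 1148 and 0 to 1629 genes. The highest of the set counts outside CD4 cells all came without the first CD8 WT library, which leaves the second, the library that stood apart. The 6 genes called in CD8 cells were then Acat2, Dhcr7, Fdps, Hmgcs1, Mbtps1 and Npc2. Without the second CD8 WT library, 768 genes were called in CD4 cells, 1317 averaged and 72 between wild types. A group left with 1 library is assumed to vary like the others. With a replicate block the 35 genes gave 1, 0, 2, 0 and 0 calls in the same order, as in the report, out of 29, 26, 399, 0 and 26 genes. Same-numbered libraries deviated together with correlations from -0.036 to 0.094. With 2 libraries a group these cannot tell whether same-numbered libraries share a mouse, which the labels do not give. With 2 libraries a group, the smallest difference called among all genes was 1.54 in CD4 cells and 2.08 in CD8 cells on the log2 scale.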
